A study of Mus musculus with 16 samples.

Results

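Adipocyte genes were followed in RNA from the ileum of male C57BL/6 mice. The 10 genes were Adipoq, Plin1, Plin4, Lep, Cfd, Retn, Fabp4, Lpl, Cidec and Pparg, taken as the rows of the count table whose Ensembl identifiers map to these symbols. All 10 of them were found among the 21965 genes of the table, and all 10 passed the filter on low counts that left 13811 genes to test. Wild-type (WT) mice were compared with fat-1 littermates, labelled Fat1+/-, which carry 1 copy of a transgene for the n3 fatty acid desaturase of C. elegans that is active in all tissues and lowers the ratio of n6 to n3 polyunsaturated fatty acids. The transgene is not the mouse gene Fat1, and it was not analysed here. The mice were 8 to 10 weeks old at the start and received a Lieber-DeCarli liquid diet, either with ethanol (EtOH), raised stepwise through 1, 2, 4 and 5 to 6%, the last for 3 weeks, or as pair-fed (PF) controls given the same calories with maltose dextrin in place of EtOH. The PF diet was given to 4 WT and 4 fat-1 mice and EtOH to 3 WT and 5 fat-1 mice, each mouse giving 1 library from a segment of terminal ileum of about 1.5 cm. The questions of the design are whether genotype, diet or their combination changed the level of these genes.

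White adipocytes store triglyceride in 1 large lipid droplet and release hormones. In them, lipoprotein lipase frees fatty acids from circulating lipoproteins, fatty acid binding protein 4 carries them inside the cell, perilipins and Cidec coat and enlarge the droplet, and the nuclear receptor PPAR gamma, with C/EBP factors, switches these genes on. The small intestine hangs from the mesentery, a fold of tissue that holds white fat. Several of these genes are not limited to fat: Fabp4 is also made by capillary endothelium and macrophages, Lpl by muscle and macrophages, and Pparg by the epithelium of the large intestine.

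The libraries held 8422645 to 11438539 counts on genes, so that 3 counts were 0.246 to 0.421 CPM, the unit used here, which is counts scaled by the library total and by edgeR's TMM factor for each library. The PF mice hold library numbers 1 to 8 and the others 9 to 16, so that library order and diet cannot be told apart. The epithelial marker Vil1 was at 809 CPM or more in every library, but the ileal marker Fabp6 was at 26.1 and 3.31 CPM in fat-1 PF mice 2 and 4, and at 117 and 586 CPM in fat-1 EtOH mice 3 and 4, where its highest level was 4906 CPM. In the latter 2 mice Vil1 was at 809 and 873 CPM, against 2159 to 3845 CPM elsewhere, and the sum of 10 ileum epithelium genes was 4629 and 5663 CPM, against 10560 CPM or more. Some libraries stood apart. The sum of 10 large intestine genes (Car1 and Aqp8 among them) was 11740 and 12680 CPM in fat-1 EtOH mice 3 and 4 and 4732 CPM in WT EtOH mouse 2, and 50.3 to 179 CPM in the other 13 libraries. The sum of 10 genes of the proximal small intestine (Lct and Gata4 among them) was 53290 and 51870 CPM in fat-1 PF mice 2 and 4, 1986 to 15470 CPM in the other PF mice, and 23.0 to 465.7 CPM in EtOH-fed mice. Values without these libraries are given for part of the results. In whole tissue, fewer cells of a type and less RNA per cell cannot be told apart.

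The adipocyte label was checked against these data. Adipoq, which only adipocytes make in quantity, had 142 to 1278 counts in every library. Of a list of 10 brown and beige adipocyte genes, Ucp1, Elovl3 and Zic1 had at most 3 counts in any library. Cox7a1, Ppargc1a and Prdm16 of the same list, none of them limited to fat, passed the filter. The list summed to 67.8 to 255 CPM per library. Over the 16 libraries the log2 levels of 7 genes correlated with Adipoq at r of 0.83 or more, while r was 0.29 for Cidec and 0.35 for Pparg. For deviations from the group means r was 0.73 for Cidec and 0.29 for Pparg.

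The genes lie on 7 chromosomes of the mouse genome (GRCm38). Adipoq (ENSMUSG00000022878) is at chr16:23146536-23158028 on the plus strand and Plin1 (ENSMUSG00000030546) at chr7:79720218-79732903 on the minus strand. Lep is at chr6:29060220-29073877, Cidec at chr6:113424634-113435760 and Pparg at chr6:115360951-115490399. Retn (chr8:3655770-3660110) and Lpl (chr8:68880491-68907448) share chromosome 8, and Cfd (chr10:79890853-79892655), Fabp4 (chr3:10204088-10208576) and Plin4 (chr17:56100591-56109803) are elsewhere. All 10 are protein coding, and counts were taken over their exons, UTRs included. Of the 75-base windows of their exons, none matched an exon of another gene in 9 of the genes, and 0.203% did in Lpl. An exon of Plin4 overlaps one of Hdgfl2, on the opposite strand, by 17 bases.

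Promoters were compared for motifs that adipocyte factors are known to bind. RefSeq sequences (GRCm38.p6) from 250 bases before to 50 bases after the start were at hand for 8 genes and 11 start sites; Fabp4 and Lpl had none. The C/EBP motif TTGCNNAA, searched on both strands, was in 4 of the 11 promoters, those of Plin1, Lep, 1 of 2 starts of Cidec and 1 of 3 starts of Pparg, and in 10.8% of all 32851 promoters of that length. The PPAR half-site AGGTCA was in 2 of 11, both of Pparg, and in 16.3% of all. The direct repeat AGGTCANAGGTCA was in 0 of 11 and in 0.0396% of all. The box CCAAT was in 4 of 11 and 37.4% of all, and TATAAA in 1 of 11 and 13.6% of all. The promoters of Plin1, Lep and the 2 starts of Cidec are shown with the C/EBP motif in capitals, as the 2 genes with the motif among those that followed Adipoq and, beside them, Cidec, and that of Adipoq with its 3 CCAAT boxes in capitals, 2 of which lie on the other strand and read ATTGG. They lie at chr7:79732727-79733026 (minus strand), chr6:29059971-29060270 (plus), chr6:113434715-113435014 and chr6:113435711-113436010 (both minus) and chr16:23146286-23146585 (plus).
Plin1: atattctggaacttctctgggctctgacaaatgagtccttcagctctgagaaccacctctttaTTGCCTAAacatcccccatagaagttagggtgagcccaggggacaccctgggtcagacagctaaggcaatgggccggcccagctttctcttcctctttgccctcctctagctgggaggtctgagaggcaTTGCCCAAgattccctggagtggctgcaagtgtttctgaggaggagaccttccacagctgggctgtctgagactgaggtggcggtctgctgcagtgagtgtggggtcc
Lep: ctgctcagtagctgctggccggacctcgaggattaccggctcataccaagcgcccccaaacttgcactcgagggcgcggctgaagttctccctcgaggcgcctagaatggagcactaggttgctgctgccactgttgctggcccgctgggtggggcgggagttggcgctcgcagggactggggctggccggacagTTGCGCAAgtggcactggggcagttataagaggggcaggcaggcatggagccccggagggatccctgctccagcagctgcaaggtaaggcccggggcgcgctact
Cidec start 1: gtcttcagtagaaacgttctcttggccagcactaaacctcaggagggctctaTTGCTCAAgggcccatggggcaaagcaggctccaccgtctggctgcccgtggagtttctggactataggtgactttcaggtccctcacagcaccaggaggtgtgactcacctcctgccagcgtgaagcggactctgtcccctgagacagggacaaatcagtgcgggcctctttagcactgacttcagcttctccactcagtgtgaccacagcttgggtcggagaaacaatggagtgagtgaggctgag
Cidec start 2: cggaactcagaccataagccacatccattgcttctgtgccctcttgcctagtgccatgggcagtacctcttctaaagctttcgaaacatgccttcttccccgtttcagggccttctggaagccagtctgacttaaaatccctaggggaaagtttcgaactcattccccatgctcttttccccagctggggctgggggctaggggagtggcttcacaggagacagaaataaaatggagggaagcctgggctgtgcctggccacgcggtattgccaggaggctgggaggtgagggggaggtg
Adipoq: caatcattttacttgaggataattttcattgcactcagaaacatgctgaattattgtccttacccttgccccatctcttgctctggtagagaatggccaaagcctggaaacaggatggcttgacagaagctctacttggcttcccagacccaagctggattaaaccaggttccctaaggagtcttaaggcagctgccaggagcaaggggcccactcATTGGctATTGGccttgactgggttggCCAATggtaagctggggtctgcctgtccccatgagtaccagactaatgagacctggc
In the Lep promoter the motif reads the same on both strands and was counted on each. The gene counts do not separate the 2 starts of Cidec. A match of letters does not show that a factor binds there.

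Counts were compared in 1 edgeR quasi-likelihood fit over the 16 libraries, with Benjamini-Hochberg adjustment over the 13811 genes, and a gene is called at an adjusted p of 0.05 or less. In this fit the level of 1 adipocyte gene differed between groups: Cidec was lower in fat-1 EtOH than in fat-1 PF mice. No other of the 10 was called in any comparison, and all 10 differed several-fold between mice of at least 1 group.

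For genotype on the PF diet (fat-1 against WT), 0 of the 10 genes were called (0% of all genes tested were called, 1758 genes at an unadjusted p under 0.05). The log2 fold changes ran from -0.74 for Plin4 to 0.76 for Cidec, with a median of -0.41 against 0.02 over all genes, and 2 of the 10, Cidec and Pparg, were above 0. None of the 10 had an unadjusted p under 0.05, and the smallest adjusted p was 0.408. Without fat-1 PF mice 2 and 4 the value of Cidec was 0.19 and that of Pparg -0.27, and those of Plin1, Plin4, Adipoq and Lpl were -1.39, -1.32, -0.97 and -0.86. Without WT PF mouse 4, 7 of the 8 values below 0 were above 0, up to 0.44 for Retn. That mouse held the highest level of 9 of the 10 genes among WT PF mice.

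For EtOH in WT mice, 0 of the 10 genes were called (0.0796% of all genes, 11 of 13811), nor were any with limma, which called 20.3% of all genes, or in a fit of these 2 groups alone, which called 7.79%. The log2 fold changes ran from -0.34 for Cidec to 1.04 (SE 0.59, adjusted p = 0.431) for Retn, with a median of 0.49 against 0.01 over all genes. The other 9 genes were above 0, and none of the 10 had an unadjusted p under 0.05. Without WT EtOH mouse 1, which was highest in 9 of the 10 genes among the 3 mice of its group, the values of Adipoq, Plin1, Lep and Fabp4 were below 0. With another mouse left out, values also went up, as far as 1.33 for Plin1, 0.73 for Adipoq, 0.95 for Plin4 and 1.51 for Lpl.

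For EtOH in fat-1 mice, 1 of the 10 genes was called, where 37.4% of all genes were. It was lower, as were 18.8% of all genes, and 0 of the 10 were called higher, against 18.7% of all genes. The 9 genes other than Cidec had log2 fold changes of 0.75 (Fabp4) to 1.53 (Plin1), and the median of the 10 was 1.20 against 0.05 over all genes. Without fat-1 EtOH mouse 5, the highest of its group in 9 of the 10 genes, these values were 0.15 for Fabp4, 0.38 for Adipoq, 0.53 for Plin4, 0.58 for Lep, 0.84 for Cfd and 0.97 for Plin1, and 1.07 to 1.30 for Lpl, Retn and Pparg. Without fat-1 PF mouse 2, the highest of its group in 8 of the 10, values went the other way, to 2.04 for Plin1, 1.86 for Plin4, 1.67 for Lpl and from 0.89 to 1.54 for Lep. Without fat-1 PF mice 2 and 4 together, Plin1 was at 2.23 (adjusted p = 0.0958), Plin4 at 1.92, Lpl at 1.83 and Adipoq at 1.34, and 0 of the 10 were called. Of these 9, 5 had an unadjusted p under 0.05: Retn (log2 fold change 1.42, SE 0.54, adjusted p = 0.0535), Cfd (1.41, SE 0.54, adjusted p = 0.0535), Plin1 (1.53, SE 0.63, adjusted p = 0.0697), Lpl (1.27, SE 0.58, adjusted p = 0.0957) and Plin4 (1.34, SE 0.62, adjusted p = 0.101). These 5 lay close to the threshold and their side of it depended on the test: the Wald test of DESeq2 called all 5 higher and Cidec lower, 6 genes in all, where it called 40.3% of all genes. Upper-quartile scaling called 3, Plin1, Cfd and Retn, and not Cidec, beside 41% of all genes. Under that scaling the median over all genes was 0.203, against 0.05 before, and 69.0% of the called genes were higher, against 49.9%.

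For genotype under EtOH (fat-1 against WT), 0 of the 10 genes were called (0.00724% of all genes, 1 of 13811), and log2 fold changes ran from -0.05 for Retn to 0.75 for Pparg. Without fat-1 EtOH mice 3 and 4 that of Pparg was -0.74. With 1 mouse left out, Pparg ran from 0.26 to 1.61, and the value of every other gene changed sign in at least 1 fit. A test of the interaction, which asks whether the change with EtOH differed between genotypes, called 0 of the 10 (0% of all genes), with values of -0.65 for Cidec to 0.94 for Plin1 and a smallest adjusted p of 0.685. At an unadjusted p under 0.05, 0 of the 10 passed in either, where 671 and 1141 genes did over the table. With 1 mouse left out, the interaction values of Retn (-0.49 to 1.22), Lpl (-0.24 to 1.17) and Pparg (-0.36 to 0.98) changed sign. That of Plin1 ran from 0.20 to 1.65. The comparisons share groups of mice and so are not independent of each other. The plot of fold changes shows the 4 comparisons side by side.

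**Figure D1:**
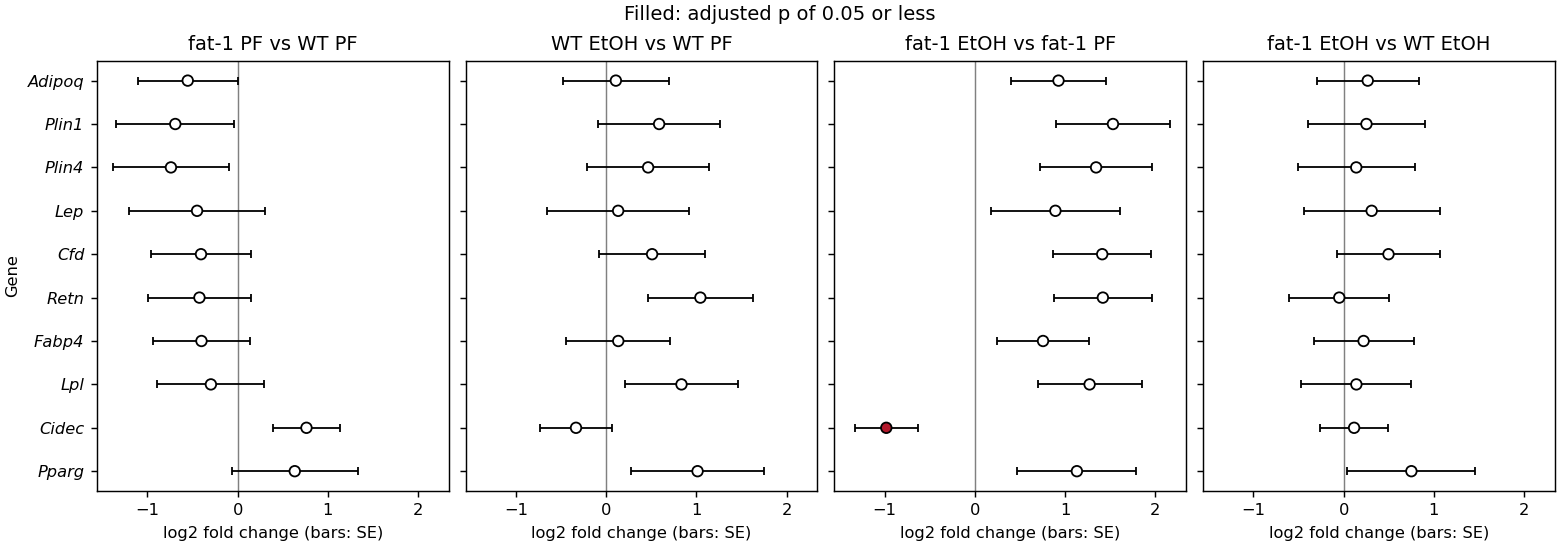
Log2 fold change of each gene in the 4 comparisons on the x axis, with bars for the standard error of the edgeR fit and a filled point where the adjusted p was 0.05 or less. Only Cidec in fat-1 EtOH against fat-1 PF mice (-0.98) is filled, and in that comparison the 9 other genes lie to the right of 0.

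The spread between mice of 1 group was wide. The within-group SD of log2(CPM + 0.5) was 0.57 for Cidec and 0.78 to 1.17 for the 9 other genes, where the median over all genes tested was 0.27. The SD of Lep was larger than that of 98.1% of the genes tested and that of Cidec larger than that of 86.6%. For 0 of the 10 genes did the groups of mice fail to overlap in any comparison, a state that 6.87% of all genes reached for genotype on PF, 24.3% for EtOH in WT mice, 24% for EtOH in fat-1 mice and 2.45% for genotype under EtOH. In exact two-sided permutation tests of the 10 genes in the 4 comparisons, 1 of 40 had p under 0.05 (Retn, fat-1 EtOH against fat-1 PF mice, p = 0.0317, adjusted p = 0.762).

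**Figure D2:**
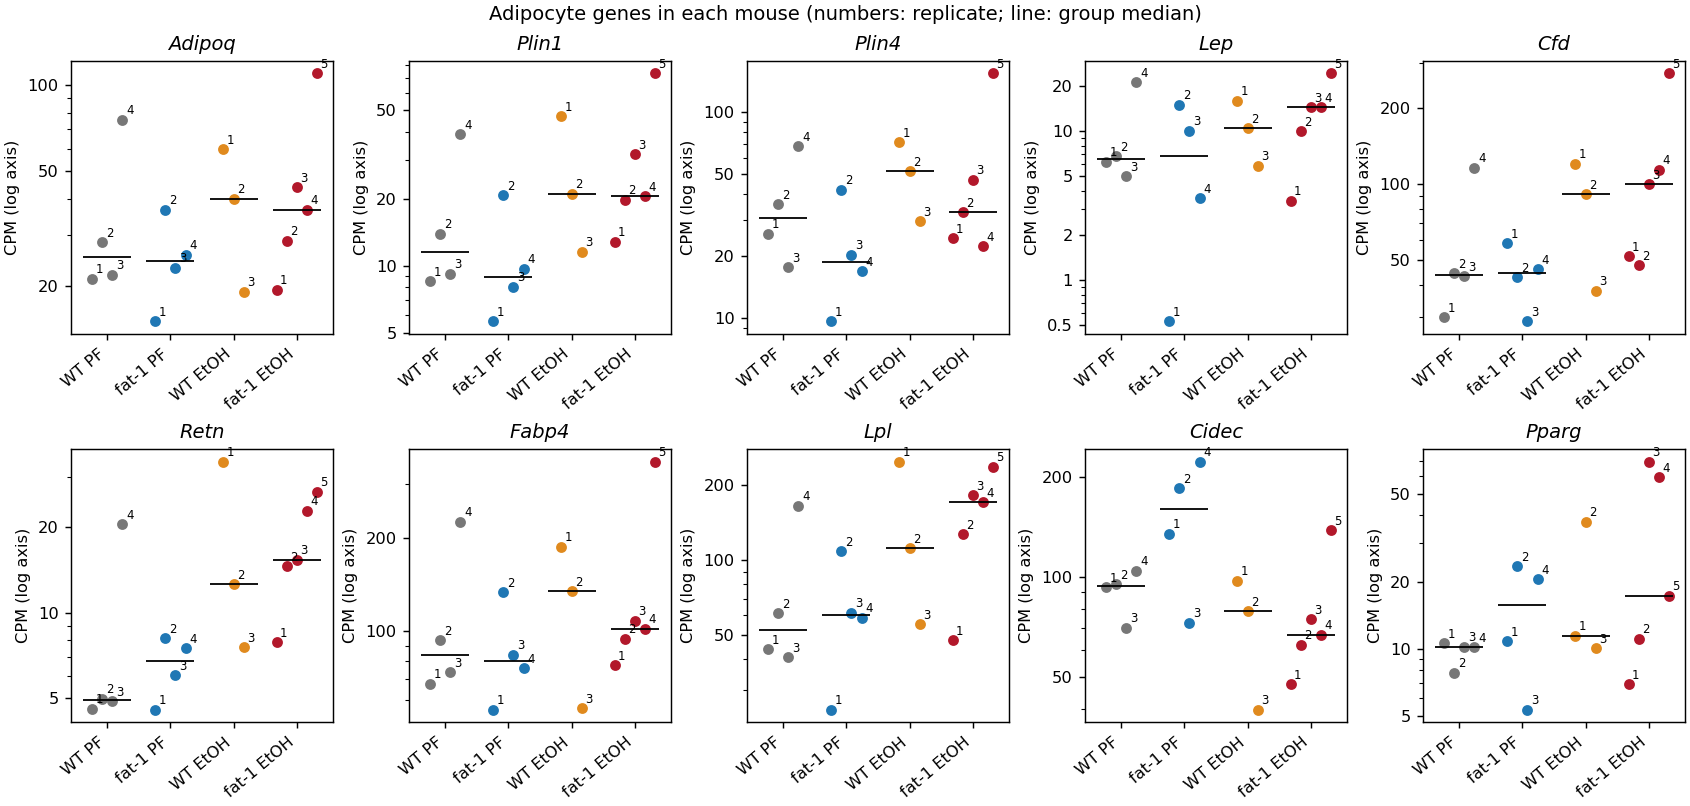
CPM of the 10 genes in each mouse (log axes), with 1 point per mouse, its replicate number beside it, and a line at the group median. WT PF mouse 4, WT EtOH mouse 1 and fat-1 EtOH mouse 5 are each the highest of their group in 9 of 10 genes, and Pparg is highest in fat-1 EtOH mice 3 and 4 and WT EtOH mouse 2.

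Among the hormones of fat, Adipoq encodes adiponectin, which raises insulin sensitivity in liver and muscle. It was at 21.2, 28.4, 21.9 and 75.6 CPM in WT PF mice 1 to 4 and at 15.1, 36.8, 23.1 and 25.7 CPM in fat-1 PF mice 1 to 4. It was at 59.7, 40.1 and 19.1 CPM in WT EtOH mice 1 to 3 and at 19.4, 28.8, 44.0, 36.8 and 109 CPM in fat-1 EtOH mice 1 to 5. WT PF mouse 4 and fat-1 EtOH mouse 5 were well above the rest of their groups, the 3 WT EtOH mice were spread evenly, and the 4 groups overlapped. The highest library was 7.26-fold above the lowest, while the group means ran only from 25.1 ± 8.98 CPM (SD, n = 4, fat-1 PF) to 47.7 ± 35.7 CPM (SD, n = 5, fat-1 EtOH). The log2 fold change with EtOH was 0.11 (SE 0.59) in WT and 0.93 (SE 0.53, adjusted p = 0.18) in fat-1 mice.

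Lep encodes leptin, which reports the size of the fat stores to the brain. By the median over the 16 libraries it was the lowest of the 10 genes per length. In fat-1 PF mice Plin1 was lower (1.91 against 2.04 CPM per kb). Lep was also the most variable of the 10. It was at 6.23, 6.79, 5.00 and 21.3 CPM in WT PF mice and at 0.53, 15.0, 10.1 and 3.56 CPM in fat-1 PF mice. It was at 16.03, 10.5 and 5.88 CPM in WT EtOH mice and at 3.42, 10.04, 14.5, 14.5 and 24.4 CPM in fat-1 EtOH mice. The low value of fat-1 PF mouse 1 rests on 5 counts, close to the 3 counts taken as the floor, and the same library was the lowest of all 16 in 7 of the 10 genes.

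Retn encodes resistin, a peptide that in mice comes mainly from adipocytes. In WT PF mice it was at 4.59, 4.98, 4.89 and 20.5 CPM and in fat-1 PF mice at 4.56, 8.14, 6.01 and 7.49 CPM. In WT EtOH mice it was at 34.02, 12.6 and 7.56 CPM and in fat-1 EtOH mice at 7.89, 14.5, 15.3, 22.8 and 26.7 CPM. Apart from WT PF mouse 4, no PF mouse exceeded 8.14 CPM, and of the EtOH-fed mice only WT EtOH mouse 3 and fat-1 EtOH mouse 1 were below that. Retn had the largest log2 fold change of the 10 in WT mice (1.04, but 0.20 without WT EtOH mouse 1 and 1.90 without WT PF mouse 4) and one of the largest in fat-1 mice, and passed the test in neither. In the fit without WT PF mouse 4 it was called in fat-1 mice (adjusted p = 0.0198), as it was without WT EtOH mouse 1 (0.0362) or 3 (0.0450) and without fat-1 EtOH mouse 1 (0.0332), but not in the other 12 fits with 1 mouse left out (adjusted p up to 0.115).

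Cfd encodes complement factor D (adipsin), the protease that starts the alternative complement pathway. In PF mice it was at 29.8, 44.5, 43.2 and 116 CPM (WT) and at 58.6, 42.8, 28.7 and 46.2 CPM (fat-1). In EtOH-fed mice it was at 120, 91.2 and 37.98 CPM (WT) and at 52.0, 47.8, 99.9, 114 and 273 CPM (fat-1). In fat-1 EtOH, 3 mice were above all fat-1 PF mice and the other 2 lay within their range. In the fits without WT PF mouse 4, WT EtOH mouse 3 or fat-1 EtOH mouse 1 or 2 its change with EtOH in fat-1 mice was called (edgeR adjusted p = 0.0381, 0.0488, 0.0328 and 0.0295), and in the other 12 of the 16 fits with 1 mouse left out it was not, with a log2 fold change of 0.84 (adjusted p = 0.17) without fat-1 EtOH mouse 5. Over the 16 libraries Cfd had the highest median per length, 54.1 CPM per kb of exon, but in both PF groups Cidec was first (50.7 and 86.2 CPM per kb, against 47.6 and 48.2 for Cfd). Per length, Cidec followed at 46.2, Fabp4 at 20.95, Adipoq at 20.7, Lpl at 8.13, Plin4 at 5.39, Retn at 5.08, Pparg at 3.72, Plin1 at 3.63 and Lep at 3.00 CPM per kb. The length is that of all annotated exons merged, 4489 bases for Fabp4, which is its whole span, and 10478 bases for Lpl. The order holds for this length only. By median CPM, Fabp4 (94.0) and Lpl (85.15) were above Adipoq (28.6). Neighbours in the order per length changed places in many mice. Fabp4 was above Adipoq in 8 of 16 libraries, Cfd above Cidec in 10 and Pparg above Plin1 in 10, while Adipoq was above Lpl in all 16.

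Of the lipid droplet coat, Plin1 encodes perilipin 1, which holds back the breakdown of stored fat until adrenaline signals. It was at 8.52, 13.9, 9.22 and 39.1 CPM in WT PF mice and at 5.62, 20.8, 8.06 and 9.70 CPM in fat-1 PF mice. It was at 47.1, 21.1 and 11.6 CPM in WT EtOH mice and at 12.8, 19.8, 31.8, 20.6 and 73.3 CPM in fat-1 EtOH mice. Every fat-1 EtOH mouse was above 3 of the 4 fat-1 PF mice, but fat-1 PF mouse 2 lay among them. Plin4, another droplet coat protein, ranged from 9.64 CPM in fat-1 PF mouse 1 to 154 CPM in fat-1 EtOH mouse 5, and all groups overlapped. Plin1 was called higher in fat-1 EtOH than in fat-1 PF mice in the fits without WT PF mouse 4, fat-1 PF mouse 2 or fat-1 EtOH mouse 1 (adjusted p = 0.0474, 0.0442 and 0.0460), but not in the other 13 (adjusted p up to 0.206, without fat-1 EtOH mouse 5).

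Of the genes that bring in fatty acids, Lpl was highest in WT EtOH mouse 1 (249 CPM) and lowest in fat-1 PF mouse 1 (25.1 CPM). Its group means (± SD) were 77.9 ± 59.1 and 63.6 ± 34.4 CPM in the 4 WT and 4 fat-1 PF mice, and 139 ± 99.7 and 153 ± 70.8 CPM in the 3 WT and 5 fat-1 mice given EtOH. Without fat-1 EtOH mouse 1, its change with EtOH in fat-1 mice was called (adjusted p = 0.0458), but in none of the other 15 fits (adjusted p up to 0.202, without fat-1 PF mouse 1). Fabp4 was highest in fat-1 EtOH mouse 5 (354 CPM) and lowest in fat-1 PF mouse 1 (55.9 CPM), and its group means ran from 87.4 ± 33.0 (fat-1 PF) to 147 ± 116 CPM (fat-1 EtOH). Fabp4 stayed in a narrow ratio to Adipoq, from 2.46 to 4.01 across the 16 libraries, although each gene alone varied over 6-fold.

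**Figure D3:**
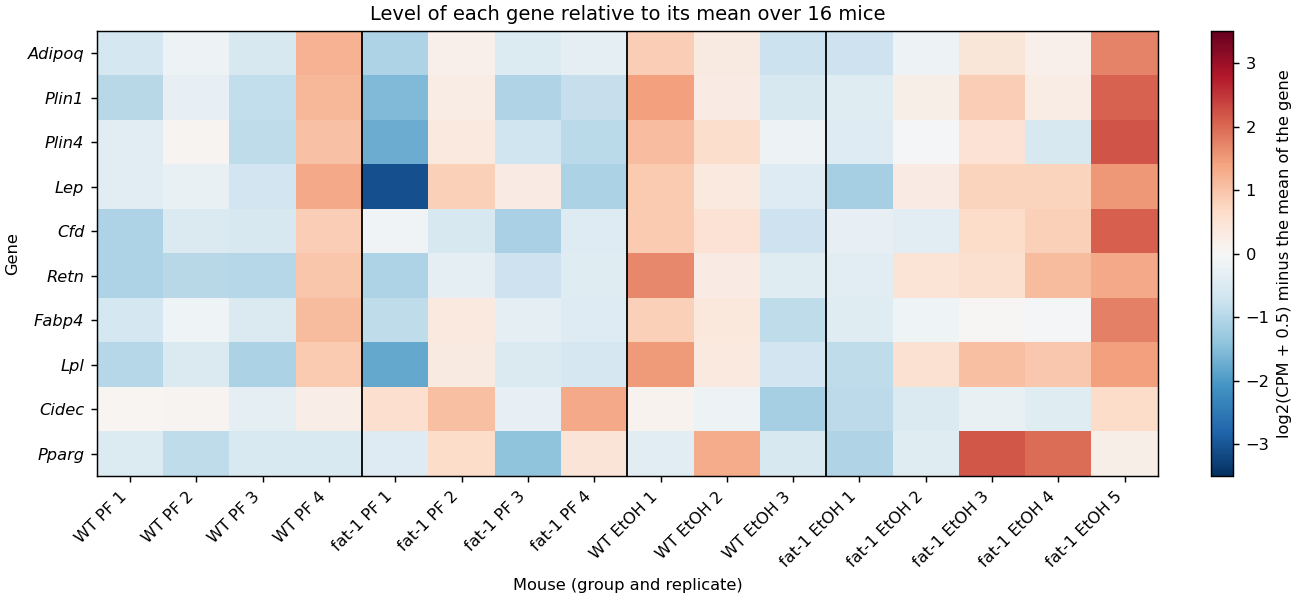
Level of each gene (rows) in each mouse (columns, grouped) as log2(CPM + 0.5) minus the mean of that gene, red above and blue below it. The first 8 rows share their high columns (WT PF 4, WT EtOH 1, fat-1 EtOH 5) and their low column (fat-1 PF 1, except for Cfd), and Cidec is also the highest of its group in those 3 mice, but its highest columns overall are fat-1 PF 4 and 2, and Pparg is highest in fat-1 EtOH 3 and 4.

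Across the 16 libraries the 8 genes other than Cidec and Pparg correlated with each other on the log2 scale, with Pearson's r of 0.52 to 0.98 over their 28 pairs (median 0.84). The genes of 1 library share its RNA and depth, and the 8 were singled out after the values were seen. With Adipoq, Fabp4 had r = 0.98 (Spearman's rho 0.96), Plin1 r = 0.95 (rho 0.91), Plin4 r = 0.91 (rho 0.81) and Lpl r = 0.90 (rho 0.92), each with a permutation p of 1e-05, the smallest that 100000 permutations can give, apart from the rho of Plin4 (p = 0.0004). Cfd had r = 0.85 (rho 0.71), Retn r = 0.84 (rho 0.85) and Lep r = 0.83 (rho 0.91). All 7 had an adjusted p of 0.003 or less by permutation over the 9 relations, for r and for rho. Without the 2 libraries farthest from the median of Adipoq (fat-1 EtOH 5 and WT PF 4), r was 0.71 for Cfd and 0.82 to 0.94 for the other 6. For deviations from the group means r was 0.80 to 0.98 for the 7 genes, 0.73 for Cidec and 0.29 for Pparg.

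Within the PF libraries and within the EtOH libraries (n = 8 each) the relations were computed again. Plin1, Plin4, Lep, Retn, Fabp4 and Lpl had r of 0.81 to 0.99 with Adipoq in PF mice and 0.84 to 0.98 in EtOH-fed mice, with adjusted p of 0.033 or less in exact permutation tests over 18 relations. Without the 2 farthest libraries of each diet the lowest of these was 0.60, for Lep in PF mice. Cfd had r = 0.95 in EtOH-fed mice (exact permutation p = 0.000843, adjusted p = 0.00201) and r = 0.67 in PF mice (exact permutation p = 0.0975, adjusted p = 0.117, rho 0.24). In fat-1 PF mouse 1, Cfd was at 58.6 CPM, the highest of its group, where 7 of the other 9 genes were the lowest of all libraries.

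**Figure D4:**
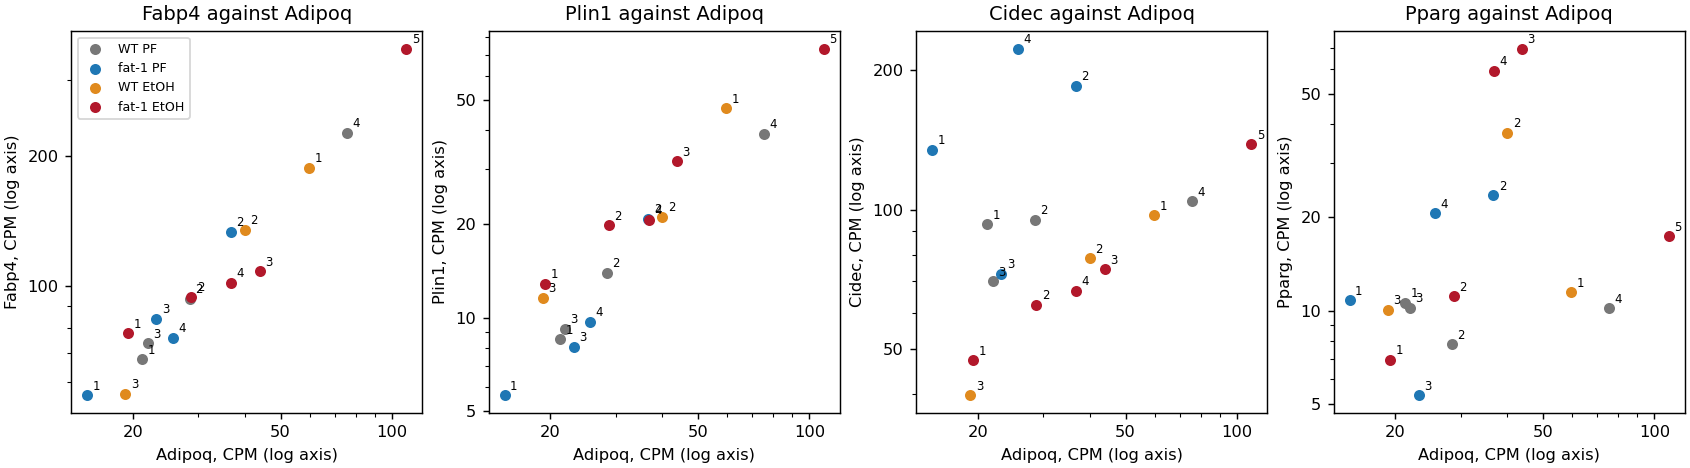
CPM of Fabp4, Plin1, Cidec and Pparg (y axes) against CPM of Adipoq (x axes) in 16 mice, all on log axes, with replicate numbers beside the points. Fabp4 and Plin1 lie along 1 line with Adipoq (r = 0.98 and 0.95), Cidec does so among EtOH-fed mice (r = 0.99) and less so among PF mice (r = 0.10, or 0.63 without 2 libraries, a difference that was not tested), and Pparg is highest in 3 EtOH-fed mice of middle Adipoq level.

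Cidec encodes a protein of the droplet surface that lets small droplets merge into large ones. It was at 93.0, 95.1, 70.2 and 104 CPM in WT PF mice and at 135, 185, 72.7 and 223 CPM in fat-1 PF mice. It was at 97.2, 78.6 and 39.7 CPM in WT EtOH mice and at 47.3, 62.3, 74.4, 66.8 and 138 CPM in fat-1 EtOH mice. Its highest levels were in fat-1 PF mice 4 and 2, of which mouse 2 was also the highest of its group in 7 of the 8 genes other than Cidec and Pparg, and mouse 4 in none of these 8, and 3 of the 4 fat-1 PF mice were above 4 of the 5 fat-1 EtOH mice. The group means (± SD) were 90.7 ± 14.5 and 154 ± 65.0 CPM in the 4 WT and 4 fat-1 PF mice, and 71.9 ± 29.3 and 77.9 ± 35.3 CPM in the 3 WT and 5 fat-1 mice given EtOH.

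With EtOH, Cidec fell by 0.98 on the log2 scale in fat-1 mice (SE 0.35, adjusted p = 0.038 in edgeR's test). In WT mice its log2 fold change was -0.34 (SE 0.40, adjusted p = 0.744), and the difference between the genotypes did not pass the interaction test (adjusted p = 0.685). The exact two-sided permutation test of the same fat-1 mice gave p = 0.0794, where 0.0159 is the smallest possible. The call was lost without WT PF mouse 1 (adjusted p = 0.05004), without fat-1 PF mouse 2 (0.1002) or 4 (0.134), and without fat-1 EtOH mouse 1 (0.0778), 2 (0.0704), 3 (0.0701) or 4 (0.0723). The log2 fold changes of these 7 fits were -0.74 to -0.97. Without fat-1 PF mice 2 and 4 together the log2 fold change was -0.41 (adjusted p = 0.475), and without the 3 libraries rich in large intestine genes, an alternative added after the data were seen, it was -0.87 (adjusted p = 0.155).

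The same 2 fat-1 PF mice had the highest sums of proximal small intestine genes. Cidec was at 185 and 223 CPM in these 2 libraries, with proximal sums of 53290 and 51870 CPM, and at 39.7 to 138 CPM in the other 14, with sums of 23.0 to 15470 CPM. In EtOH-fed mice, whose proximal sums were 465.7 CPM or less, Cidec followed Adipoq closely, with r = 0.99 (rho 0.98, exact permutation p = 7.44e-05, adjusted p = 0.000595, n = 8), and r was 0.98 without the 2 farthest libraries. In PF mice r was 0.10 (rho 0.33, exact permutation p = 0.832, n = 8) but 0.63 without the 2 farthest libraries, WT PF 4 and fat-1 PF 1, and the difference between the 2 diets in this relation was not tested. The ratio of Cidec to Adipoq was 1.27 to 2.44 in EtOH-fed mice and 1.38 to 8.97 in PF mice. Between fat-1 EtOH and fat-1 PF mice this ratio did not overlap (1.27 to 2.44 against 3.15 to 8.97), a log2 difference of -1.69 with an exact permutation p of 0.0159, the smallest possible, and an adjusted p of 0.343 over 36 such ratio tests, which were added after the levels were seen. The ratios of 4 other genes to Adipoq did not overlap between WT EtOH and WT PF mice and were higher with EtOH: Plin1 (0.526 to 0.789 against 0.402 to 0.517), Cfd (1.99 to 2.27 against 1.41 to 1.98), Retn (0.314 to 0.570 against 0.175 to 0.271) and Lpl (2.79 to 4.17 against 1.87 to 2.19). Each had an exact permutation p of 0.0571, the smallest possible there, and the same adjusted p of 0.343. Of all genes, 0.29% had a ratio to Adipoq that was higher without overlap in that comparison, and 6.75% one that was lower without overlap between fat-1 EtOH and fat-1 PF mice, as for Cidec. Most genes did not follow Adipoq, so that their ratios carry its spread and are a poor measure for the 9. The part of the proximal genes in the level of Cidec was not tested.

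Pparg encodes PPAR gamma, the nuclear receptor that adipocytes need to form. It was at 10.6, 7.81, 10.2 and 10.2 CPM in WT PF mice and at 10.8, 23.6, 5.33 and 20.6 CPM in fat-1 PF mice. It was at 11.5, 37.5 and 10.1 CPM in WT EtOH mice and at 6.94, 11.1, 70.0, 59.4 and 17.4 CPM in fat-1 EtOH mice. Its 3 highest libraries, fat-1 EtOH 3 and 4 and WT EtOH 2, were the same 3 in which large intestine genes stood out: Pparg was at 37.5 to 70.0 CPM there and at 5.33 to 23.6 CPM in the other 13. Its r with Adipoq was 0.35 (rho 0.53, permutation p = 0.2 and 0.04, adjusted p = 0.2 and 0.04) 0.58 without the 2 libraries farthest in Adipoq, and 0.37 in the 13 libraries without those 3. The 3 libraries with the most Adipoq (109, 75.6 and 59.7 CPM) had 17.4, 10.2 and 11.5 CPM of Pparg.

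The log2 fold change of Pparg with EtOH in fat-1 mice was 1.13 (SE 0.66, adjusted p = 0.188), the same direction as that of the 8 genes other than Cidec. Without fat-1 EtOH mice 3 and 4 it was -0.32 (adjusted p = 0.671), and without fat-1 PF mice 2 and 4 it was 2.02 (adjusted p = 0.136). In WT mice it was 1.01 (SE 0.74, adjusted p = 0.555), and 0.15 without WT EtOH mouse 2. The part of large intestine RNA in these values was not tested. The plot of Cidec and Pparg against the 2 gene sums shows where these libraries lie.

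**Figure D5:**
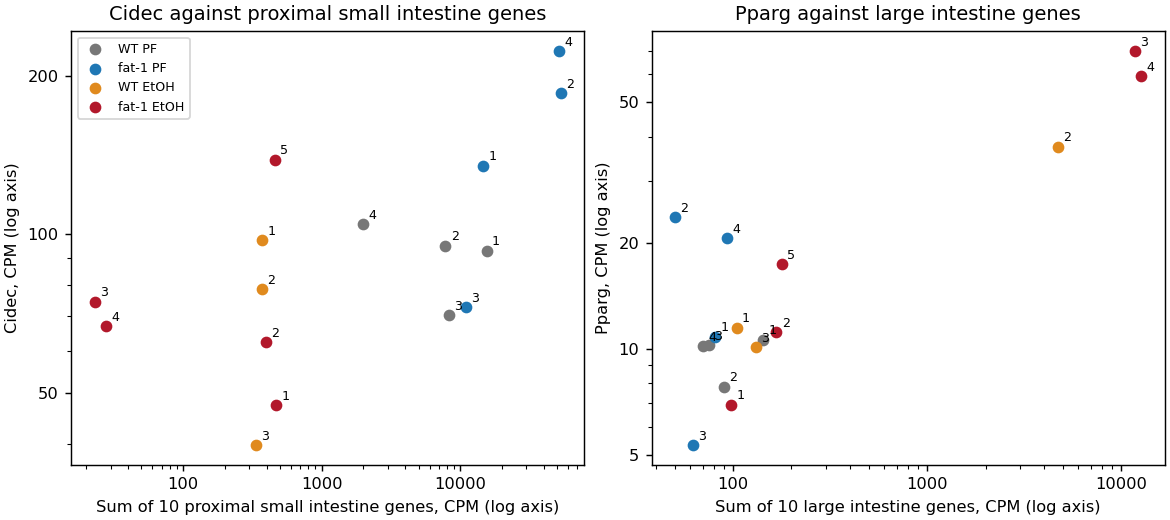
CPM of Cidec against the summed CPM of 10 proximal small intestine genes (left) and of Pparg against the summed CPM of 10 large intestine genes (right), all on log axes, 1 numbered point per mouse. The 2 highest Cidec values (185 and 223 CPM) are at the 2 highest proximal sums, and the 3 highest Pparg values (37.5 to 70.0 CPM) are at the 3 highest large intestine sums.

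The genes whose levels were most like those of Adipoq over the 16 libraries, by Pearson's r, were Slc7a10 (0.97), Trarg1 (0.97), Car3 (0.95), Ccdc80 (0.94), Fads3 (0.94), Abcd2 (0.93), Glb1l2 (0.93) and Nnmt (0.92), with no test. Slc7a10, an amino acid transporter, Trarg1, a regulator of the glucose transporter GLUT4, and Car3, a carbonic anhydrase, are themselves on the list of other adipocyte genes. Car3 was the most abundant of the 8 and ran from 48.0 CPM in fat-1 PF mouse 1 to 436 CPM in fat-1 EtOH mouse 5, and all 8 were highest in the latter mouse. The genes most like Pparg were Ncoa7 (0.95), Car2 (0.94), Nt5c2 (0.94), Pfkl (0.93) and Blnk (0.93), none of them on that list. Car2, a carbonic anhydrase, was at 662 and 721 CPM in fat-1 EtOH mice 3 and 4, at 234 CPM in WT EtOH mouse 2 and at 58.7 and 51.2 CPM in fat-1 PF mice 2 and 4, and did not exceed 15.2 CPM in the other 11. All 5 had their highest level in fat-1 EtOH mouse 3 or 4, and 3 of the 5 were still among the 5 most like Pparg without those 2 mice.

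The genes of a list of 24 other adipocyte genes followed Adipoq to differing degrees. Their r with it had a median of 0.66, against 0.02 over all genes tested; 5 were above 0.8 and 10 below 0.5. With EtOH in fat-1 mice, 6 of the 24 rose and 2 fell, where 37.4% of all genes were called, with a median log2 fold change of 1.02, and 0 were called in the other 3 comparisons. Acvr1c, a receptor of the activin family, rose by a log2 fold change of 1.20 (SE 0.18, adjusted p = 0.000455) and Cav1, the coat protein of caveolae, by 1.28 (SE 0.23, adjusted p = 0.00101). Gpd1, which makes glycerol 3-phosphate and is also an enzyme of other tissues, fell by 1.82 on the log2 scale (SE 0.34, adjusted p = 0.0013) from 1142 ± 363 CPM (SD, n = 4) to 324 ± 160 CPM (SD, n = 5). The r of Acvr1c with Adipoq was 0.31 and that of Gpd1 -0.34.

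Of 10 genes of brown and beige adipocytes 3 were tested. All 3 fell between fat-1 EtOH and fat-1 PF mice, as did 18.8% of all genes, while 0 of the 3 were called elsewhere. They were Cox7a1 (log2 fold change -1.84, SE 0.24, adjusted p = 0.000267), a subunit of cytochrome oxidase, Ppargc1a (-0.90, SE 0.26, adjusted p = 0.0156), a coactivator of mitochondrial genes, and Prdm16 (-1.54, SE 0.54, adjusted p = 0.0378), a transcription factor. None of the 3 is limited to fat, and the uncoupling protein gene Ucp1 was at 0 to 0.14 CPM.

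Genes that make or break down triglyceride moved both ways between fat-1 EtOH and fat-1 PF mice: of 20 tested, 5 rose and 7 fell (median log2 fold change 0.34), and 0 were called in the other comparisons. Over all genes, 37.4% were called between these groups, 18.7% higher and 18.8% lower. Dgat2, which adds the last fatty acid to triglyceride, fell by 2.04 (SE 0.33, adjusted p = 0.000639) from 736 ± 446 to 180 ± 35.4 CPM. Mlxipl, the carbohydrate-responsive transcription factor, fell by 1.43 (SE 0.29, adjusted p = 0.00229) and Srebf1, which drives fatty acid synthesis, by 0.91 (SE 0.21, adjusted p = 0.00462). Of 7 other lipid droplet genes tested, 1 rose and 2 fell (median -0.09). Cideb, the relative of Cidec in liver and intestine, fell by 1.60 (SE 0.26, adjusted p = 0.000644) from 412 ± 91.4 to 136 ± 54.3 CPM, and the droplet coat gene Plin3 fell by 1.29 (SE 0.35, adjusted p = 0.0112). Hilpda, an inhibitor of fat breakdown, rose by 1.20 (SE 0.38, adjusted p = 0.0244).

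Of 15 receptors and partners of the 10 genes that were tested, 2 rose and 3 fell between fat-1 EtOH and fat-1 PF mice (median -0.20), and 0 were called in the other comparisons. Adipor2, an adiponectin receptor, fell by 1.36 (SE 0.17, adjusted p = 0.000254) from 621 ± 156 to 243 ± 25.7 CPM, and Cebpb, a C/EBP factor of early adipocyte formation, fell by 1.22 (SE 0.20, adjusted p = 0.000658). Cdh13, a cadherin that binds adiponectin, rose by 1.42 (SE 0.35, adjusted p = 0.00645). Of 17 targets of PPAR gamma tested, 4 rose and 2 fell (median 0.34), with 0 called elsewhere. Dbi, an acyl-CoA binding protein, fell by 1.09 (SE 0.17, adjusted p = 0.000477), Nr1h3, the sterol receptor LXR alpha, fell by 1.23 (SE 0.27, adjusted p = 0.00339), and Slc27a1, a fatty acid transporter, rose by 0.99 (SE 0.23, adjusted p = 0.00522). The shares called in these lists lie beside the 37.4% of all genes called in that comparison.

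The lists were fitted again without the libraries that stood apart, an alternative added after the data were seen. Without fat-1 PF mice 2 and 4, where 14.3% of all genes were called, 4 other adipocyte genes rose and 1 fell, and of the triglyceride genes 0 rose and 2 fell. Of the genes named, Prdm16 (-0.20, edgeR adjusted p = 0.82), Ppargc1a (-0.55), Srebf1 (-0.29), Mlxipl (-0.85), Plin3 (-1.17), Hilpda (1.23), Nr1h3 (-1.07) and Slc27a1 (1.01) were then not called, and Dgat2 stood at -1.04 (SE 0.23, adjusted p = 0.016). The PPAR gamma targets then had 0 higher and 1 lower. Without fat-1 EtOH mice 3 and 4, where 30.2% were called, Hilpda was not called (0.44, adjusted p = 0.212). Of the other lipid droplet genes 0 were then higher and 4 lower (median -0.70), and of the triglyceride genes 2 were higher and 6 lower. In the same fit the median of the PPAR gamma targets was -0.45, with 2 higher and 6 lower, against 0.34 with all mice.

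Markers of other tissues moved with the same comparison. With EtOH in fat-1 mice, 10 of 10 smooth muscle genes and 9 of 10 fibroblast genes rose, 9 of 10 proximal small intestine genes fell, 6 of 8 large intestine genes tested rose, and 3 of 10 ileum epithelium genes fell, where 37.4% of all genes were called. Without fat-1 PF mice 2 and 4 these counts were 8, 6, 9, 1 and 0, and without fat-1 EtOH mice 3 and 4 they were 10, 9, 9, 2 and 2. The summed level of smooth muscle genes was 1411 to 2069 CPM in PF mice and 2490 to 4844 CPM in EtOH-fed mice, and that of fibroblast genes was 272 to 455 and 439 to 633 CPM. Of the mesothelium, which covers gut and mesentery, 2 of 8 genes rose, Muc16 and Krt19, the second also a gene of epithelium, and sums were 999 to 2314 CPM in PF and 1882 to 2861 CPM in EtOH-fed mice. Endothelium genes were called in 0 of 10 (59.2 to 180 CPM over all mice), macrophage genes in 2 of 10, 1 in each direction (135 to 710 CPM), B cell genes in 0 of 8 (6.33 to 582 CPM) and exocrine pancreas genes in 0 of 1 tested (5.04 to 53.6 CPM). Without fat-1 EtOH mice 3 and 4, 2 endothelium genes (Cldn5 and Pecam1) and 3 B cell genes (Cd79b, Fcer2a and Spib) were higher, all named after their values were seen. Of the mesothelium genes, only Lrrn4 was then called (log2 fold change 1.36), and 0 were called without fat-1 PF mice 2 and 4. In these 2 fits Muc16 was at 1.53 and 1.79 and Krt19 at 0.61 and 0.22. The part of these tissues in the levels of the adipocyte genes was not tested.

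The mouse with the most Adipoq, fat-1 EtOH 5, was also the highest in macrophage (710 CPM), endothelium (180 CPM), fibroblast (633 CPM) and B cell sums (582 CPM), and its ileum epithelium sum was 10560 CPM. The 2 mice next in Adipoq, WT PF 4 and WT EtOH 1, were also the highest of their groups in these 4 sums, by smaller margins. Macrophage sums there were 303 and 229 CPM and endothelium sums 83.0 and 88.4 CPM, where the other mice of the 2 groups reached 300.3 and 223.7 and 77.04 and 73.9 CPM. Fibroblast sums were 455 and 557 CPM and B cell sums 123 and 106 CPM, where the others reached 353.5 and 443.9 and 86.8 and 81.1 CPM. Of smooth muscle and mesothelium, fat-1 EtOH 5 had the lowest sums of the EtOH-fed mice (2490 and 1882 CPM). WT EtOH 1 was the highest of its group in both (3438 and 2692 CPM) and WT PF 4 in neither (1826 and 2174 CPM). The sums were compared after the values were seen. Macrophages and endothelium also use Fabp4, and macrophages Lpl.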

How the data were processed

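RNA of the ileum of 16 male mice was measured, with 1 poly(A)-selected, stranded library per mouse. The authors aligned 75-base paired reads to mm10 (GRCm38) with tophat2 2.0.13, guided by Ensembl build 82, and deposited its output from htseq, unnormalized whole counts for each gene; the strand setting of htseq is not given in the sources used here. Symbols, positions and exon lengths came from GENCODE M21, in which 21939 of the 21965 genes were found.

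The main test was that of edgeR 4.0.16 in R 4.3.3 (filterByExpr, TMM scaling, robust quasi-likelihood fit with 1 mean per group, Benjamini-Hochberg adjustment at 0.05). CPM were scaled by TMM. Exact permutation tests used log2(CPM + 0.5), and correlations 100000 permutations or, with 8 libraries, all of them. The SD is that between mice. The alternatives were DESeq2 1.42.0, limma 3.58.1 voom with quality weights, 2 other scalings, 2 other filters (1 count in any mouse, 10 in every mouse), each mouse left out, a fit restricted to the compared groups, a block for the replicate number and pseudocounts of 1 and 0.1. The fit was also run on simulated counts with known fold changes, drawn with the typical spread of genes at each level. That run does not cover genes as variable between mice as the adipocyte genes. Permutations ran in python 3.11.15 (scipy 1.17.1), and matplotlib 3.10.9 drew the figures.

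The genes named are the 10 adipocyte genes, for each list up to 3 called genes with the smallest p between fat-1 EtOH and fat-1 PF mice, and, outside the 10, the 8 genes most like Adipoq and the 5 most like Pparg. The genes and lists were chosen with earlier results of these data known. With 1 library per mouse, the p-values of group comparisons set differences against the spread between mice. The mice were littermates, and neither litter nor library order was part of any fit.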

Additional observations from a re-analysis of the deposited data

Results flagged for a closer look

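In groups of 4 or 5 mice, a mouse stood far from the others of its group (Dixon's test at 95%, on log2(CPM + 0.5)) in 3 of the 30 sets of values, where chance gives about 1 in 20. The 30 sets come from the same mice and from genes that move together, so they are not independent trials. Retn was at 20.5 CPM in WT PF mouse 4, where the other 3 mice lay between 4.59 and 4.98 CPM. Fabp4 was at 354 CPM in fat-1 EtOH mouse 5, with the next mouse at 108 CPM. Pparg was at 7.81 CPM in WT PF mouse 2, below 3 mice at 10.2 to 10.6 CPM, a small difference in a group that was otherwise tight.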

How the results depend on the processing

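The number of adipocyte genes called was the same under all alternatives in the 3 comparisons other than fat-1 EtOH against fat-1 PF mice and in the interaction. Between fat-1 EtOH and fat-1 PF mice, where 1 gene was called, upper-quartile scaling called 3, DESeq2 6, the looser filter 0 and the stricter filter 3, while these called 41, 40.3, 27.7 and 38.7% of all genes, against 37.4%. Leaving out single mice gave 0 to 4 genes: 4 without WT PF mouse 4 or fat-1 EtOH mouse 1, 3 without WT EtOH mouse 3, 2 without WT EtOH mouse 1, and 0 without WT PF mouse 1, fat-1 PF mouse 4 or fat-1 EtOH mouse 3 or 4. It was 0 without fat-1 EtOH mice 3 and 4 (30.2% of all genes), 0 without fat-1 PF mice 2 and 4 (14.3%) and 0 without the 3 libraries rich in large intestine genes (29.6%). A fit of only the 2 groups (22.4%) also called 1 gene, but that was Retn. The cause was not tested. Without fat-1 EtOH mice 3 and 4, 3 of the 5 genes most like Pparg remained.

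The replicate number does not pair the mice: deviations from the group mean had a mean correlation of -0.0225 over 21 pairs with the same number and of 0.00704 over 74 with other numbers. With the number as a replicate block, 1 gene (Cidec) was called, as before, and 8 values that had not passed the test changed sign for genotype under EtOH: Adipoq -0.50, Plin1 -0.48, Plin4 -0.74, Lep -0.48, Cfd -0.28, Fabp4 -0.50, Lpl -0.43 and Cidec -0.20.

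No called value changed sign. Of 1074 refitted log2 fold changes of the 4 comparisons between groups, 61 did so, none of them past the test. Refits of the interaction are not among them, and some of those also changed sign (Pparg -1.34 to 1.00, Retn -0.70 to 1.22), with 0 called. With limma, Retn (0.14) and Lpl (0.060) for genotype on PF, Pparg between fat-1 EtOH and fat-1 PF mice (-0.17), and, for genotype under EtOH, Adipoq (-0.41), Plin1 (-0.43), Plin4 (-0.58), Lep (-0.52), Cfd (-0.26), Fabp4 (-0.29), Lpl (-0.59), Cidec (-0.23) and Pparg (-0.066) did. Without fat-1 EtOH mice 3 and 4, Pparg was -0.32 against fat-1 PF and -0.74 against WT EtOH mice, and Lpl -0.028 against WT EtOH mice. Without fat-1 PF mice 2 and 4, Pparg was -0.27 between the PF groups. Without the 3 libraries rich in large intestine genes, Pparg was -0.32 against fat-1 PF and Lpl -0.16 against WT EtOH mice.

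With 1 mouse left out, values that changed sign ranged as follows for genotype on PF: Adipoq -0.81 to 0.074, Plin1 -1.20 to 0.057, Lep -1.10 to 0.27, Cfd -0.64 to 0.17, Retn -0.65 to 0.44, Fabp4 -0.69 to 0.16 and Lpl -0.70 to 0.38. Between WT EtOH and WT PF mice they were Adipoq -0.32 to 0.73, Plin1 -0.12 to 1.33, Lep -0.27 to 0.84 and Fabp4 -0.27 to 0.69. For genotype under EtOH they were Adipoq -0.30 to 0.69, Plin1 -0.33 to 0.96, Plin4 -0.69 to 0.47, Lep -0.0245 to 0.71, Cfd -0.091 to 0.86, Retn -0.42 to 0.80, Fabp4 -0.41 to 0.62, Lpl -0.24 to 0.87 and Cidec -0.20 to 0.40. A pseudocount of 1 or 0.1 changed no side of the permutation tests. Depth limits Lep most, which had 5 counts in fat-1 PF mouse 1.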
